A study of Homo sapiens with 12 samples.

Results

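The genes described here are 9 receptors of growth factor and matrix signals: the fibroblast growth factor receptors FGFR1, FGFR2, FGFR3 and FGFR4, the hepatocyte growth factor receptor MET, the receptor RET and its co-receptor GFRA1, the collagen receptor DDR1 and the GAS6 receptor AXL. They were taken from the gene count table by symbol. All 9 were among its 27864 genes and among the 16081 genes with enough counts to be tested. Their messenger RNA was measured in T47D, a long-established luminal breast cancer cell line with estrogen receptor, in a control line (CTRL) and in a line with a knockout of NF1 (NF1KO), the gene of neurofibromin, which switches RAS off. Both lines received the vehicle DMSO or 3 µM BYL719 for 48 h. BYL719, or alpelisib, inhibits the catalytic PI3K subunit p110 alpha. The labels do not say how the knockout was made, or whether the NF1KO line is 1 clone or a pool, so a difference between the lines cannot be put down to NF1 alone.

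Each group had 3 libraries except NF1KO with DMSO, which had 2, since its replicate 1 had no values among the gene counts used here. Depth ranged from 53283945 to 60148876 counts over the 11 libraries, and of these 32 ribosomal RNA genes took 8.43% to 12.2%. NF1 itself stood in NF1KO at 0.192% of its CTRL level in DMSO and 0.362% in BYL719. The summed level of 8 luminal epithelial markers lay between 9046.3 and 12744.9 CPM, counts scaled to library size, in every library. The 14 markers of other cell types summed to 55.4 to 61.0 CPM in CTRL DMSO, 31.5 to 39.4 in CTRL BYL719, 31.6 in each NF1KO DMSO library and 22.0 to 27.9 in NF1KO BYL719, most of it COL1A1. The leukocyte markers PTPRC and CD3E had at most 2 counts in a library. The CTRL libraries numbered 1 deviated most from their group means, by a root mean square of 0.24 (DMSO) and 0.26 (BYL719) on the log2 scale against 0.14 to 0.20 in the others. Nothing states that replicates came from separately grown cultures, so the p values measure only the spread between these libraries. That spread is the error of each CPM value (SD), and the standard error (SE) is given for each log2 fold change.

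Receptor tyrosine kinases bind ligands outside the cell, pair up, phosphorylate each other and recruit adaptors that activate RAS and PI3K. FGF receptors bind FGF ligands together with heparan sulphate, and RET does not bind its GDNF-family ligands directly but through lipid-anchored GFRA co-receptors, of which GFRA1 binds GDNF. FGFR1 and FGFR2 are known as amplified or risk genes in breast cancer, and RET and GFRA1 are known as estrogen-responsive genes in luminal breast cancer cells.

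Of the 9 genes, 8 had promoter windows in the RefSeq table (GRCh38.p14), and the bases before the outermost start in that table are shown for the pair that was lowest in NF1KO relative to CTRL in DMSO (GFRA1 and MET) and for the FGF receptors whose response to BYL719 differed between the lines (FGFR2 and FGFR4). For FGFR2 that start lies a few bases inside the annotated gene. Each window is 250 bases long and is written 5′ to 3′ on the strand of the gene, with matches to any of the motifs named below in capitals. GFRA1 lies on the minus strand (chr10:116274706-116274955), MET on the plus strand (chr7:116671946-116672195), FGFR2 on the minus strand (chr10:121598445-121598694) and FGFR4 on the plus strand (chr5:177086665-177086914).
GFRA1: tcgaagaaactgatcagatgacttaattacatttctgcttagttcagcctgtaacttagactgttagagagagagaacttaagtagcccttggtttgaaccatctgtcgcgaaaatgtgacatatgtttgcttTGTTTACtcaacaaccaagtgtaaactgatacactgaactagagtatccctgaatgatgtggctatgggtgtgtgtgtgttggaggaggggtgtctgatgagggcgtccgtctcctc
MET: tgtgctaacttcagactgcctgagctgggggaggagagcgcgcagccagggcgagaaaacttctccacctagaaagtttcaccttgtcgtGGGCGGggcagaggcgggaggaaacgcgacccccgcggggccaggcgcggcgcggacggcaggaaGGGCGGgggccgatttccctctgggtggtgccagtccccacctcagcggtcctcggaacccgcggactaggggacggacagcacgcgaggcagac
FGFR2: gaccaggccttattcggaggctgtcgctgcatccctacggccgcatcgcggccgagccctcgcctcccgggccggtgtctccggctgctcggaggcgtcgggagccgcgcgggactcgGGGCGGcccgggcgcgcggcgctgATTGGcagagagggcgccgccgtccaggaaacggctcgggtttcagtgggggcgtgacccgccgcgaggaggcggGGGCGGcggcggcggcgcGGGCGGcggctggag
FGFR4: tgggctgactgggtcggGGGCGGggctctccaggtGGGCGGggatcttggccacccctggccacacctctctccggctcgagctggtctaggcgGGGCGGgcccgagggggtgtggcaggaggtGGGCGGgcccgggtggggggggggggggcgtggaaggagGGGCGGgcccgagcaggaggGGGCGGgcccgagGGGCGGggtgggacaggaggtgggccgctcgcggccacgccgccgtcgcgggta
The GFRA1 window was the poorest of these in G and C, at 43.2%, against 68.4% for MET, 78.4% for FGFR2, 79.6% for FGFR4 and a median of 58.0% over 35116 windows. Its capitals are a forkhead motif (GTAAACA on the other strand) at bases -117 to -111 from the start. Those of MET and FGFR4 are GC boxes (GGGCGG), and those of FGFR2 are GC boxes and a CCAAT box (CCAAT on the other strand). Both strands were searched. Of all windows in the table, 2.98% held the forkhead motif, 42.6% a GC box, 32.0% a CCAAT box, 6.57% an AP-1 motif (TGANTCA), 3.42% an ETS motif (CCGGAAGT) and 0.0399% the palindromic estrogen response element. Of the 25 windows of the 8 receptors, counting each annotated start, 1 held the forkhead motif, 13 a GC box, 5 a CCAAT box and 1 the AP-1 motif, and neither the ETS motif nor the estrogen response element was matched in these letters. Gene counts do not tell which start these cells used, and a match of letters is not a binding site.

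Per length, DDR1 was the most abundant of the 9 in each group and AXL the least. In CTRL DMSO the level per kilobase of exon descended in the order DDR1 (48.4 CPM per kb), FGFR2 (14.1), GFRA1 (10.3), MET (6.15), RET (4.57), FGFR4 (4.47), FGFR3 (3.40), FGFR1 (2.51) and AXL (0.547). Only RET and FGFR4, as neighbours in this order, had libraries that overlapped. In NF1KO DMSO the order was DDR1 (40.4), FGFR2 (6.91), RET (6.48), FGFR4 (4.58), FGFR1 (3.73), MET (2.40), FGFR3 (1.83), GFRA1 (0.706) and AXL (0.348), with no overlap between neighbours. GFRA1 thus stood in place 3 in CTRL and in place 8 in NF1KO, while RET stood in places 5 and 3. With BYL719, MET (6.66 CPM per kb) and FGFR4 (6.05) were the only overlapping neighbours in CTRL, and none overlapped in NF1KO, where RET (7.42) stood in place 3 and FGFR1 (4.58) in place 4. Some places depended on the length used. With the longest principal transcript in place of all exons, a choice made after seeing the data, FGFR1 moved from place 8 to place 6 in CTRL DMSO (5.88 CPM per kb) and from place 5 to place 3 in NF1KO DMSO (8.75). RET then stood in place 7 in CTRL DMSO (5.58) and place 4 in NF1KO DMSO (7.91), and FGFR4 in place 4 in CTRL DMSO (6.92), while DDR1, FGFR2, GFRA1 and AXL kept their places in DMSO.

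**Figure D1:**
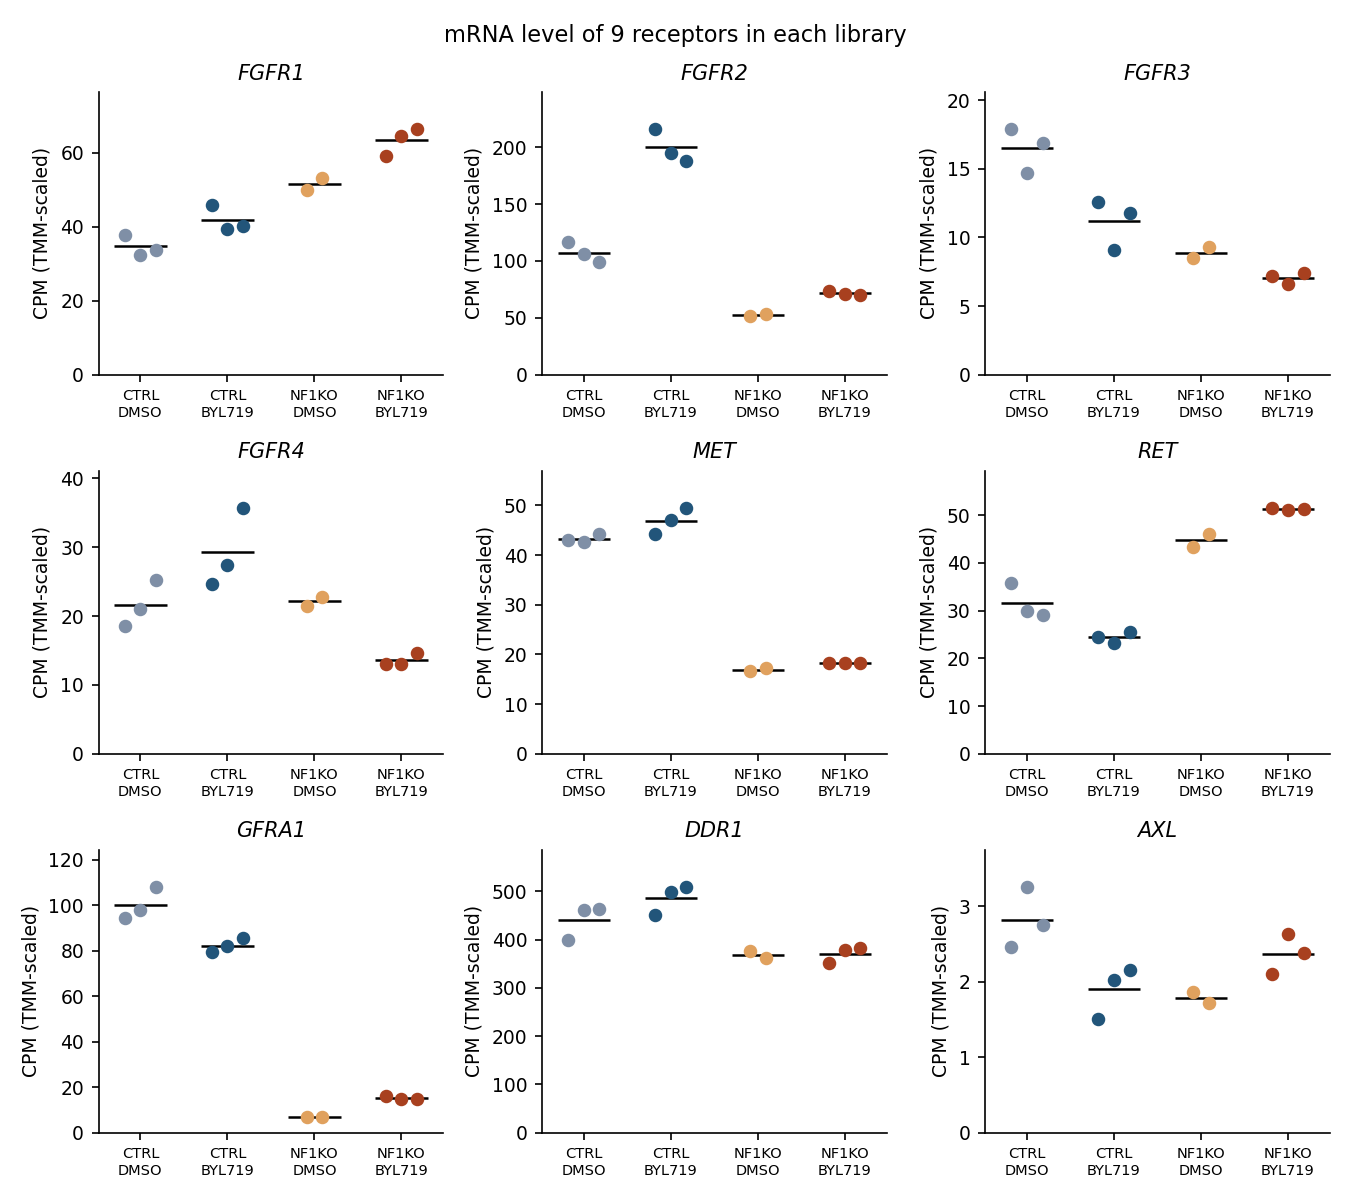
Level of each receptor in each library, in CPM on a linear axis that starts at 0, by group. Points are libraries and bars are group means. GFRA1 lay between 94.3 and 108.0 CPM in CTRL DMSO and at 6.81 and 6.85 CPM in NF1KO DMSO, and no NF1KO library of MET reached a CTRL library.

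In DMSO, 2 of the 9 receptors were higher (FGFR1 and RET) and 5 lower (FGFR2, FGFR3, MET, GFRA1 and AXL) in NF1KO than in CTRL, where 20.3% of all tested genes were called (9.99% higher and 10.3% lower). A call is an adjusted p under 0.05 in edgeR's quasi-likelihood test with Benjamini-Hochberg adjustment over all tested genes, the test behind every adjusted p given here. In BYL719, 2 were higher (FGFR1 and RET) and 6 lower (FGFR2, FGFR3, FGFR4, MET, GFRA1 and DDR1), beside 39.8% of tested genes (20.8% higher and 19.0% lower). BYL719 against DMSO in CTRL raised 3 (FGFR1, FGFR2 and FGFR4) and lowered 4 (FGFR3, RET, GFRA1 and AXL), beside 44.4% of tested genes (22.6% higher and 21.8% lower). The 7 called there became 5 in a fit of the compared libraries only, 4 without CTRL DMSO replicate 2 and 9 with a replicate block inside each line. In NF1KO BYL719 raised 3 (FGFR1, FGFR2 and GFRA1) and lowered FGFR4, beside 18.7% of tested genes (10.3% higher and 8.47% lower). The receptors were chosen with earlier results of these data known, so these counts are a description. Libraries of the compared groups did not overlap for 8 of the 9 between the lines in DMSO (all but FGFR4), beside 56.1% of tested genes (27.9% higher and 28.2% lower in NF1KO), and for 8 in BYL719 (all but AXL), beside 48.9% (25.2% and 23.7%). For BYL719 against DMSO they did not overlap for 6 in CTRL, beside 51.1% (25.8% higher and 25.3% lower), and for 8 in NF1KO, beside 54.7% (28.4% and 26.2%). With groups this small, lack of overlap was thus common over all genes. The median absolute log2 fold change of the 9 was 0.65 between the lines in DMSO and 1.07 in BYL719, where all tested genes had 0.20 and 0.26. For BYL719 it was 0.37 in CTRL and 0.33 in NF1KO, where all tested genes had 0.29 and 0.20. The comparisons share libraries (each group serves in several of them), so their values are set side by side only. In bulk libraries, fewer cells with a receptor's mRNA and less of it per cell cannot be told apart.

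**Figure D2:**
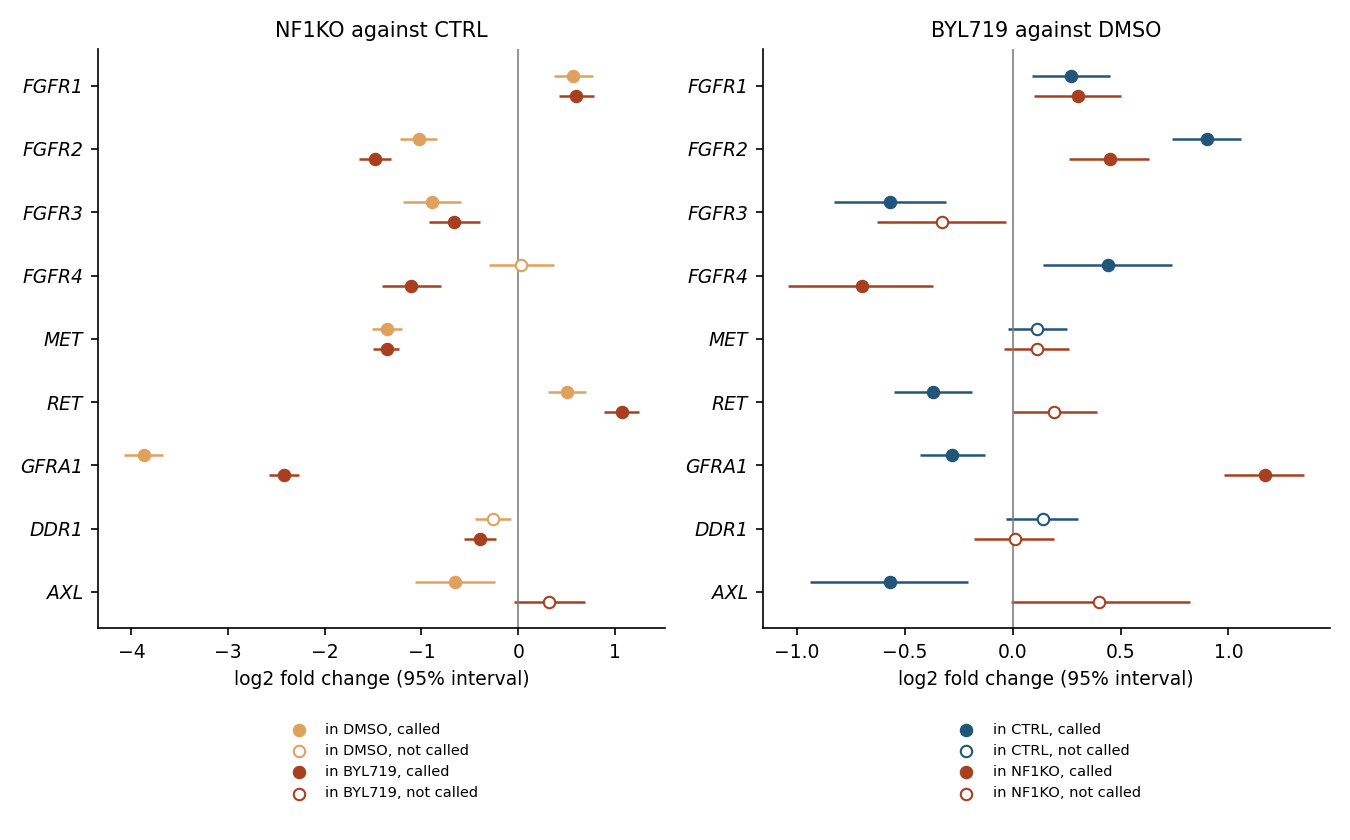
Log2 fold change of each receptor with its 95% interval, NF1KO against CTRL at left and BYL719 against DMSO at right. Filled points passed an adjusted p under 0.05 and open points did not. GFRA1 lies farthest from 0 at left (-3.87 in DMSO, -2.42 in BYL719), and at right GFRA1 and FGFR4 lie on opposite sides of 0 in CTRL and NF1KO.

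FGFR2 was the most abundant FGF receptor per length in every library. FGFR2 (Entrez 2263, chromosome 10, 121478330 to 121598458, GRCh38) stood in DMSO at 116.6, 106.3 and 98.7 CPM in CTRL replicates 1, 2 and 3 and at 51.8 and 53.0 CPM in NF1KO replicates 2 and 3. In BYL719 it stood at 216.1, 195.3 and 188.2 CPM in CTRL and 73.3, 71.4 and 69.7 CPM in NF1KO. Each NF1KO library lay below each CTRL library of the same treatment, and even the NF1KO libraries with BYL719 lay below CTRL without it. NF1KO less CTRL gave a log2 difference of -1.03 ± 0.09 with DMSO (adjusted p = 4.11e-06) and of -1.48 ± 0.08 with the drug (adjusted p = 2.43e-08). BYL719 raised FGFR2 in CTRL by 0.90 ± 0.07 (adjusted p = 1.92e-06) and in NF1KO by 0.45 ± 0.08 (adjusted p = 0.00399). The second call was lost without NF1KO DMSO replicate 2 (adjusted p = 0.0567) or 3 (adjusted p = 0.0512), omissions that leave 1 library in that group.

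FGFR1 ran the other way between the lines. FGFR1 (Entrez 2260, chromosome 8, 38411143 to 38468635) stood in DMSO at 37.8, 32.5 and 33.8 CPM in CTRL and 49.9 and 53.3 CPM in NF1KO. In BYL719 its level was 45.8, 39.4 and 40.2 CPM in CTRL and 59.1, 64.6 and 66.5 CPM in NF1KO. Every NF1KO library was above every CTRL library, whatever the treatment. The lines differed by 0.57 ± 0.09 with DMSO (adjusted p = 7.96e-04) and 0.60 ± 0.08 with the drug (adjusted p = 9.81e-05). The rises with BYL719 were small, 0.27 ± 0.08 in CTRL (adjusted p = 0.0195) and 0.30 ± 0.09 in NF1KO (adjusted p = 0.0422). The rise in CTRL was not called in a fit of the compared libraries only (adjusted p = 0.0517) or without CTRL DMSO replicate 2 (0.0830), CTRL DMSO replicate 3 (0.0719) or CTRL BYL719 replicate 1 (0.0620). FGFR1 was higher with BYL719 in each same-numbered CTRL pair, and the rise in CTRL was called with a replicate block inside each line. That in NF1KO was not called with no filter (0.0542) or without CTRL DMSO replicate 2 (0.0506) or 3 (0.0614), CTRL BYL719 replicate 3 (0.0564), NF1KO DMSO replicate 2 (0.269) or 3 (0.148), or NF1KO BYL719 replicate 2 (0.112) or 3 (0.0951).

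FGFR3 was lower in NF1KO and lower with BYL719 in CTRL. FGFR3 (Entrez 2261, chromosome 4, 1793293 to 1808867) stood in DMSO at 17.9, 14.7 and 16.9 CPM in CTRL and 8.49 and 9.27 CPM in NF1KO. In BYL719 it stood at 12.6, 9.09 and 11.8 CPM in CTRL and 7.20, 6.64 and 7.38 CPM in NF1KO. CTRL DMSO was the high group, and the lowest CTRL BYL719 library lay between the NF1KO DMSO libraries. NF1KO differed from CTRL by -0.89 ± 0.14 with DMSO (adjusted p = 6.20e-04) and -0.66 ± 0.12 with the drug (adjusted p = 0.00104). BYL719 changed it by -0.57 ± 0.12 in CTRL (adjusted p = 0.00227) and by -0.33 ± 0.14 in NF1KO, which did not pass (adjusted p = 0.118, 95% interval -0.63 to -0.03). It was called in a fit of the compared libraries only (adjusted p = 0.0342) and without both CTRL libraries numbered 1 (0.0446). It was also called with a replicate block over all groups (0.00967) or inside each line (0.00432). The numbers are not shown to pair the NF1KO libraries (r = 0.08 and 0.15). The summed level of the markers of other cell types, most of it COL1A1, moved with FGFR3 over the groups, and the sums are given above. Of those 14 markers 7 were tested. In NF1KO in DMSO 1 was lower (COL1A1, -1.01 ± 0.12, adjusted p = 1.10e-04) and 2 were higher, beside 20.3% of all tested genes called. The higher ones were PECAM1, listed at 0 in CTRL and with at most 9 counts in an NF1KO DMSO library, and TP63, whose call was lost without NF1KO DMSO replicate 2 (adjusted p = 0.0502) or 3 (0.0570). COL1A1 was also the gene whose level ran closest to that of FGFR3 over the libraries (below), and the part of such cells in the result was not tested.

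FGFR4 moved in opposite directions in the 2 lines with BYL719. FGFR4 (Entrez 2264, chromosome 5, 177086915 to 177098144) stood in DMSO at 18.5, 21.0 and 25.3 CPM in CTRL and 21.5 and 22.8 CPM in NF1KO. In BYL719 its level was 24.6, 27.4 and 35.7 CPM in CTRL and 13.1, 13.0 and 14.6 CPM in NF1KO. The lines overlapped in DMSO, where the difference was 0.03 ± 0.15 (adjusted p = 0.898, 95% interval -0.30 to 0.37), and were apart in BYL719, at -1.11 ± 0.14 (adjusted p = 5.34e-05). In NF1KO BYL719 lowered it by -0.70 ± 0.15 (adjusted p = 0.00880), a call that was lost without NF1KO DMSO replicate 3 (adjusted p = 0.0804). In CTRL it rose by 0.44 ± 0.14 (adjusted p = 0.0218), although the highest DMSO library was above the lowest BYL719 library. That rise was not called in a fit of the compared libraries only (adjusted p = 0.0675) or without CTRL DMSO replicate 1 (0.0767), CTRL DMSO replicate 2 (0.0633) or CTRL BYL719 replicate 3 (0.105), and without the last it was 0.27. CTRL libraries of replicate 1 were the lowest and of replicate 3 the highest in both treatments. FGFR4 was higher with BYL719 in each same-numbered CTRL pair. With a replicate block inside each line the rise in CTRL was called, as were the changes of all 9 receptors there.

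Summed per kilobase, the 4 FGF receptors stood at 24.5 ± 0.983 CPM per kb (SD, n = 3) in CTRL DMSO, 37.7 ± 1.69 (SD, n = 3) in CTRL BYL719, 17.1 ± 0.600 (SD, n = 2) in NF1KO DMSO and 18.3 ± 0.238 (SD, n = 3) in NF1KO BYL719. The CTRL sum was thus higher with BYL719 in every library, with FGFR2 carrying most of the gain, and the NF1KO BYL719 libraries lay above both NF1KO DMSO libraries by a smaller margin. FGFR2 made up 57.6% ± 3.32 (SD, n = 3) of the sum in CTRL DMSO and 40.6% ± 0.736 (SD, n = 2) in NF1KO DMSO. The share of FGFR1 was 10.2% ± 0.392 (SD, n = 3) and 21.9% ± 0.271 (SD, n = 2). In BYL719 the share of FGFR2 was 69.8% ± 3.27 (SD, n = 3) in CTRL and 51.6% ± 1.90 (SD, n = 3) in NF1KO, and that of FGFR1 8.00% ± 0.335 and 25.0% ± 1.33 (SD, n = 3 each). The shares of no CTRL library overlapped those of an NF1KO library of the same treatment for either receptor. These sums and shares were not tested, and they depend on the gene lengths used.

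**Figure D3:**
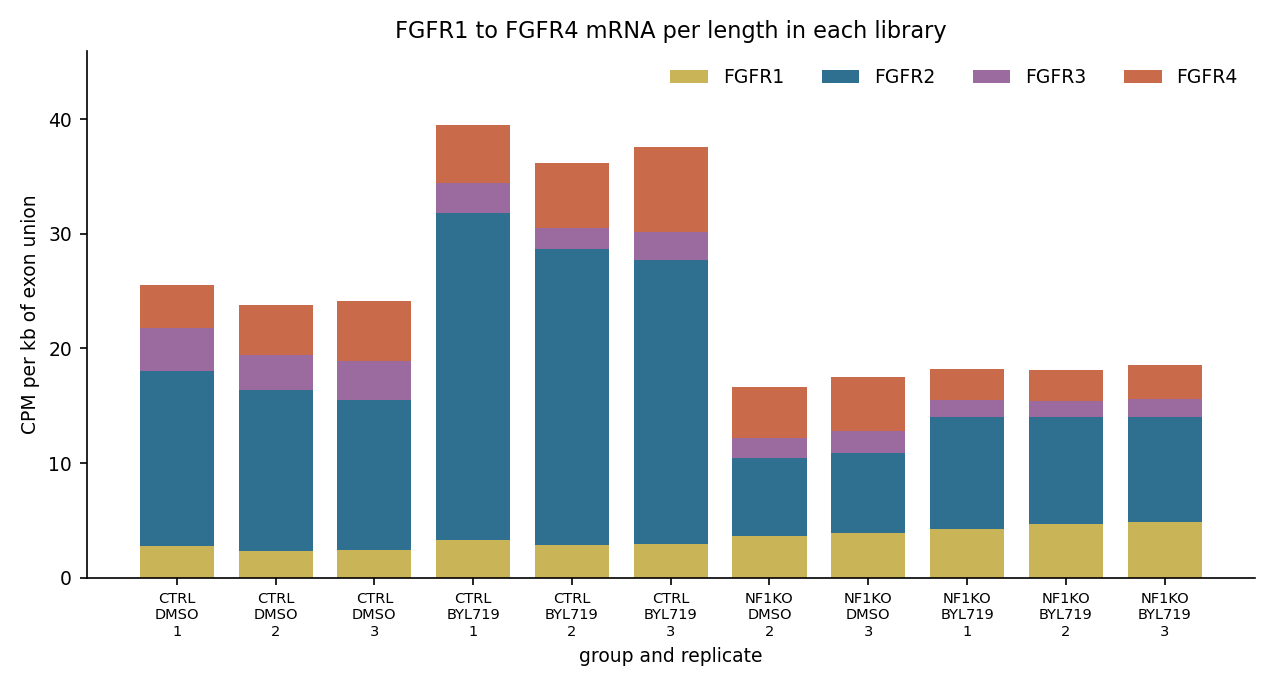
FGF receptor mRNA per kilobase of exon in each library (bar height, CPM per kb, axis from 0), split by receptor. The CTRL BYL719 bars reach 36.2 to 39.5 CPM per kb, mostly FGFR2, and the NF1KO bars 16.6 to 18.6, with a larger FGFR1 part.

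MET, the receptor of hepatocyte growth factor (HGF), was lower in NF1KO to the same degree with and without drug. MET (Entrez 4233, chromosome 7, 116672196 to 116798377) stood in DMSO at 43.0, 42.7 and 44.2 CPM in CTRL and 16.6 and 17.2 CPM in NF1KO. With BYL719 its level was 44.2, 47.0 and 49.5 CPM in CTRL and 18.2, 18.2 and 18.3 CPM in NF1KO. Libraries within a group lay close together and those of the 2 lines far apart. On the log2 scale NF1KO differed by -1.36 ± 0.07 with DMSO (adjusted p = 9.61e-08) and by -1.36 ± 0.06 with the drug (adjusted p = 1.03e-08), or 39.0% and 38.9% of the CTRL level. BYL719 changed MET by 0.11 ± 0.06 in CTRL (adjusted p = 0.147, 95% interval -0.02 to 0.25) and 0.11 ± 0.07 in NF1KO (adjusted p = 0.315, 95% interval -0.04 to 0.26), and neither passed. With a replicate block inside each line the change in CTRL was called (0.11, adjusted p = 0.0386). Pairing by number was clear only for the CTRL libraries numbered 1.

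Some genes near MET were lower in NF1KO as well. Distances are between start coordinates, the lower coordinate of each gene whatever its strand. Of 4 tested genes that start within 1 Mb of MET, each lay below 0 on the log2 scale in DMSO (median -0.40) and 2 were called. The nearest were CAPZA2, a subunit of the actin capping protein (-0.27, adjusted p = 0.0515), the antisense transcript ST7-AS1 (-1.35, adjusted p = 0.0304) and ST7 (-0.45, adjusted p = 0.00478). The remaining gene was ST7-OT3 (-0.34, adjusted p = 0.0850), so all but CAPZA2 carry the ST7 name. ST7-AS1 and ST7 overlap, and how the authors' counting treated strand is not given in the sources used here. In BYL719 CAPZA2 and ST7 were lower, ST7-AS1 stood at 0.00 (adjusted p = 0.992), and the median of the 4 was -0.21. The fall of MET exceeded the median of its neighbours in both treatments. Around GFRA1, 6 of 6 tested genes lay below 0 in DMSO, 4 of them called (median -0.56). The nearest were PNLIPRP2 (-0.57, adjusted p = 0.123), C10orf82 (-1.68, adjusted p = 8.29e-07) and HSPA12A (-0.52, adjusted p = 0.00786), and in BYL719 2 were lower and 1 higher (median -0.28). The genes around the other receptors called in both treatments had medians near 0 in DMSO: -0.06 over 6 genes for FGFR2, 0.04 over 20 for FGFR1, -0.08 over 30 for FGFR3 and -0.07 over 13 for RET. Called lower were 1 near FGFR2, 2 near FGFR1, 4 near FGFR3 and 2 near RET, and called higher were 0, 3, 1 and 1. Of all tested genes, 10.3% were lower and 9.99% higher in DMSO, and 19.0% were lower and 20.8% higher in BYL719. Whether neighbours and receptors changed together was not tested.

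**Figure D4:**
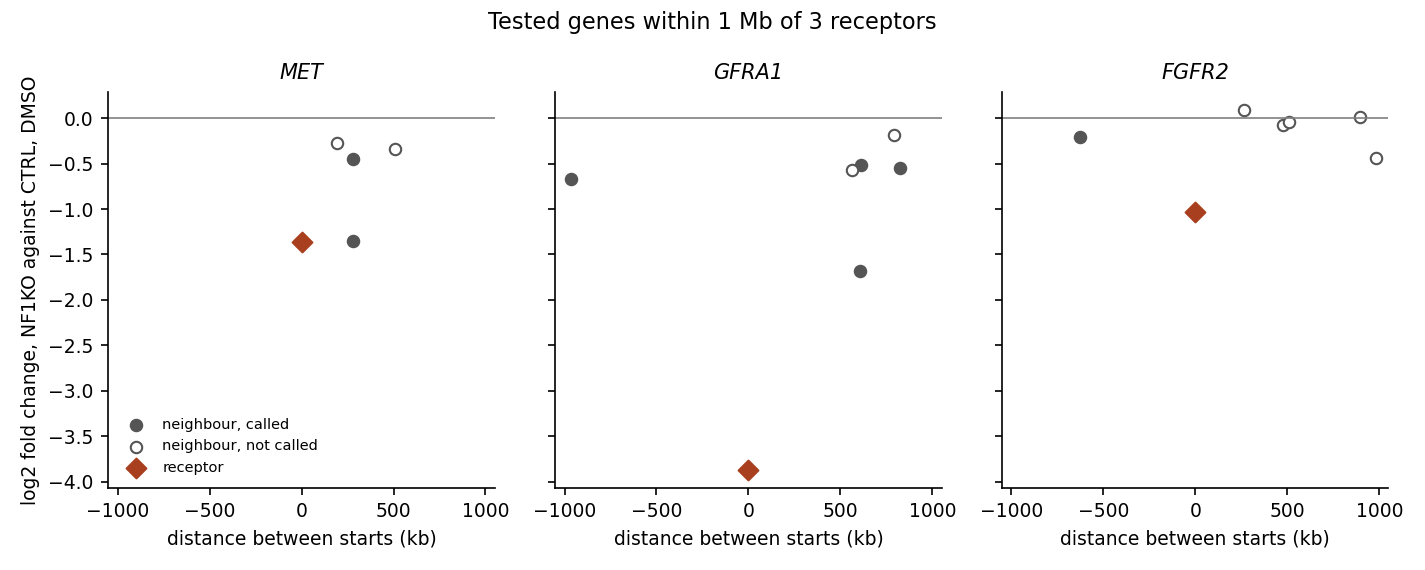
Log2 fold change of NF1KO against CTRL in DMSO for tested genes whose start coordinate lies within 1 Mb of that of MET, GFRA1 or FGFR2, against distance between start coordinates (kb). Diamonds are the receptors, filled circles called neighbours and open circles neighbours not called. All neighbours of MET and GFRA1 lie below 0, and those of FGFR2 scatter around it.

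GFRA1 showed the largest difference of the 9 between the lines. GFRA1 (Entrez 2674, chromosome 10, 116056925 to 116274705) stood in DMSO at 94.3, 97.7 and 108.0 CPM in CTRL and 6.85 and 6.81 CPM in NF1KO. With BYL719 its values were 79.3, 82.0 and 85.4 CPM in CTRL and 16.3, 14.8 and 14.9 CPM in NF1KO. NF1KO was low throughout, and its BYL719 libraries were all above its DMSO libraries, while in CTRL the BYL719 libraries were all below. Between the lines the log2 difference came to -3.87 ± 0.09 with DMSO (14.6-fold lower, adjusted p = 1.63e-10) and -2.42 ± 0.07 with the drug (5.37-fold lower, adjusted p = 3.45e-10). BYL719 raised GFRA1 in NF1KO by 1.17 ± 0.09 (adjusted p = 1.97e-05) and lowered it in CTRL by -0.28 ± 0.07 (adjusted p = 0.00517). With drug, NF1KO still held 18.6% of the CTRL level. Ranked by p over all tested genes, GFRA1 was number 3 in the DMSO comparison of the lines and number 11 for BYL719 in NF1KO.

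RET, the signalling partner of GFRA1, was higher in NF1KO. RET (Entrez 5979, chromosome 10, 43077069 to 43130351) stood in DMSO at 35.8, 29.8 and 29.1 CPM in CTRL and 43.4 and 46.1 CPM in NF1KO. Under the drug it measured 24.5, 23.2 and 25.6 CPM in CTRL and 51.5, 51.0 and 51.2 CPM in NF1KO. No libraries of the 2 lines overlapped. NF1KO exceeded CTRL by 0.50 ± 0.09 with DMSO (adjusted p = 0.00171) and 1.07 ± 0.08 with the drug (adjusted p = 7.49e-07), both log2. BYL719 lowered RET in CTRL by -0.37 ± 0.08 (adjusted p = 0.00303). In NF1KO RET changed by 0.19 ± 0.09, which did not pass (adjusted p = 0.155, 95% interval 0.00 to 0.39). That change was called without both CTRL libraries numbered 1 (adjusted p = 0.0324) and with a replicate block inside each line (0.0286). The numbers are not shown to pair the NF1KO libraries (r = 0.08 and 0.15). Receptor and co-receptor thus ran apart between the lines: per kilobase, CTRL DMSO held 4.57 CPM of RET and 10.3 of GFRA1, and NF1KO DMSO 6.48 and 0.706.

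Several luminal regulators, the list that holds the estrogen receptor, were lower in NF1KO. Of 10 genes, 6 were lower and 0 higher in DMSO (median log2 fold change -0.33, where that of all tested genes was -0.01) and 7 were lower in BYL719 (median -0.32, all genes 0.00). Of all tested genes, 10.3% were lower in DMSO and 19.0% in BYL719. ESR1, which encodes the estrogen receptor, was lower in NF1KO by -0.83 ± 0.09 with DMSO (adjusted p = 3.30e-05) and by -0.40 ± 0.08 with the drug (adjusted p = 0.00141). For the pioneer factor FOXA1 the differences were -0.39 ± 0.07 (adjusted p = 0.00113) and -0.30 ± 0.06 (adjusted p = 0.00115). GATA3 was not called, at 0.23 ± 0.10 (adjusted p = 0.145) and 0.13 ± 0.09 (adjusted p = 0.298). With BYL719 in NF1KO, where GFRA1 rose, ESR1 rose by 0.48 ± 0.09 (adjusted p = 0.00327), a call lost without NF1KO DMSO replicate 3 (adjusted p = 0.0502). In CTRL ESR1 changed by 0.05 ± 0.08 (adjusted p = 0.670). Of the 10 genes, 3 were higher with BYL719 in NF1KO, ESR1 among them, and 1 was lower (SPDEF, -0.64). There 18.7% of all tested genes were called (10.3% higher and 8.47% lower). A link between these values and those of RET or GFRA1 was not tested.

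DDR1, a kinase that collagen activates, was abundant in every library and differed little. DDR1 (Entrez 780, chromosome 6, 30880970 to 30900156) stood in DMSO at 400.1, 460.5 and 463.7 CPM in CTRL and 375.7 and 361.6 CPM in NF1KO. In BYL719 it stood at 451.3, 498.3 and 509.1 CPM in CTRL and 351.3, 377.7 and 382.4 CPM in NF1KO. CTRL replicate 1 was the lowest CTRL library in both treatments and still above every NF1KO library. In BYL719 the difference was -0.39 ± 0.08 (adjusted p = 0.00134). In DMSO it was -0.26 ± 0.09, just outside the threshold (adjusted p = 0.0502, 95% interval -0.45 to -0.07). It was inside under RLE scaling (adjusted p = 0.0494), upper-quartile scaling (0.0481), the filter of 1 CPM (0.0394), DESeq2 (0.0217) and limma-voom (0.0492). It was inside too without CTRL DMSO replicate 1 (0.0162), CTRL BYL719 replicate 1 (0.0247) or both of them (0.00187), and with a replicate block over all groups (-0.31, adjusted p = 0.00200). BYL719 changed DDR1 by 0.14 ± 0.08 in CTRL (adjusted p = 0.158, 95% interval -0.03 to 0.30), or by 0.14 with an adjusted p of 0.00751 under a replicate block inside each line. In NF1KO the change was 0.01 ± 0.08 (adjusted p = 0.968, 95% interval -0.18 to 0.19).

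AXL, known as a receptor of mesenchymal-like and drug-tolerant tumour cells, was the least abundant of the 9. AXL (Entrez 558, chromosome 19, 41219223 to 41261766) had between 89 and 179 counts in a library. It stood in DMSO at 2.46, 3.26 and 2.75 CPM in CTRL and 1.86 and 1.72 CPM in NF1KO. In BYL719 it stood at 1.51, 2.03 and 2.16 CPM in CTRL and 2.11, 2.63 and 2.38 CPM in NF1KO. CTRL DMSO was above NF1KO DMSO in every library, whereas the lines overlapped in BYL719. NF1KO was lower by -0.65 ± 0.19 with DMSO (adjusted p = 0.0304), and with the drug the difference of 0.32 ± 0.17 did not pass (adjusted p = 0.147, 95% interval -0.04 to 0.69). BYL719 lowered AXL in CTRL by -0.57 ± 0.17 (adjusted p = 0.0145). In NF1KO AXL changed by 0.40 ± 0.19, which did not pass (adjusted p = 0.162, 95% interval -0.01 to 0.82). That change was called with a replicate block over all groups (adjusted p = 0.0243) or inside each line (0.0240). The numbers are not shown to pair the NF1KO libraries (r = 0.08 and 0.15). The DMSO difference was not called without CTRL DMSO replicate 2 (adjusted p = 0.0938) or 3 (0.0539) or NF1KO DMSO replicate 2 (0.117) or 3 (0.192), and the fall in CTRL was not called without CTRL DMSO replicate 2 (0.0693). The mesenchymal marker VIM stood at 3.05 ± 0.439 CPM (SD, n = 3) in CTRL DMSO, 2.27 ± 0.319 (SD, n = 3) in CTRL BYL719, 2.85 ± 0.0913 (SD, n = 2) in NF1KO DMSO and 2.61 ± 0.324 (SD, n = 3) in NF1KO BYL719. The sums of all 14 markers of other cell types, given above and mostly COL1A1, were also highest in CTRL DMSO. They were lowest in NF1KO BYL719 (22.0 to 27.9 CPM), where each AXL value was above those of NF1KO DMSO. The part of these markers in the values of AXL was not tested.

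The effect of BYL719 itself differed between the lines for 5 of the 9 receptors, beside 9.39% of all tested genes (5.68% with a higher effect in NF1KO and 3.71% with a lower one). The difference of effects is the log2 change with drug in NF1KO less that in CTRL. It was 1.45 ± 0.11 for GFRA1 (adjusted p = 2.36e-05), 0.98 ± 0.25 for AXL (adjusted p = 0.0312) and 0.56 ± 0.12 for RET (adjusted p = 0.0119). It was -1.14 ± 0.21 for FGFR4 (adjusted p = 0.00419) and -0.45 ± 0.11 for FGFR2 (adjusted p = 0.0251). GFRA1 and FGFR4 kept this call without each library in turn. For RET it was lost without NF1KO DMSO replicate 2 (adjusted p = 0.0853). For FGFR2 it was lost without CTRL DMSO replicate 2 (0.0603) or 3 (0.0632), NF1KO DMSO replicate 2 (0.102) or 3 (0.131) or NF1KO BYL719 replicate 2 (0.0587). For AXL it was lost without CTRL DMSO replicate 2 (0.0778) or 3 (0.0513), NF1KO DMSO replicate 2 (0.0965) or 3 (0.139) or NF1KO BYL719 replicate 2 (0.0793) or 3 (0.0552). The other 4 did not pass: FGFR1 at 0.03 ± 0.12 (95% interval -0.24 to 0.30), FGFR3 at 0.24 ± 0.18 (-0.16 to 0.64), MET at -0.01 ± 0.09 (-0.21 to 0.20) and DDR1 at -0.13 ± 0.11 (-0.38 to 0.12).

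**Figure D5:**
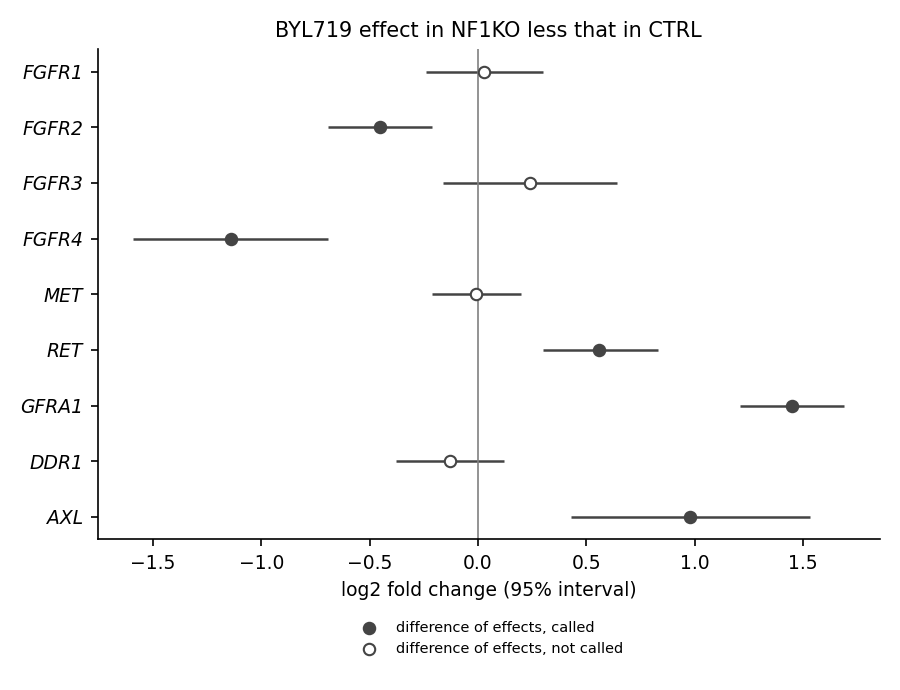
Difference of the BYL719 effect (log2 fold change in NF1KO less that in CTRL) with its 95% interval for each receptor. Filled points passed an adjusted p under 0.05. GFRA1 lies at 1.45 and FGFR4 at -1.14, and MET and FGFR1 lie at -0.01 and 0.03.

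Ligand mRNA was scarce for the FGF receptors and present for other families. Of 18 FGF ligand genes, 6 were listed at 0 in each library, none had more than 9 counts in a library, and none could be tested. Of 9 ligands of the MET, RET and AXL families (collagens, the ligands of DDR1, were not listed), 7 were tested. In NF1KO 3 of them were higher in DMSO and none lower (median 0.05, all tested genes -0.01), beside 20.3% of all tested genes called. In BYL719 HGF was the only one called (higher), beside 39.8%. GDF15, a ligand that signals through RET with the co-receptor GFRAL, had a mean of 0.801 ± 0.150 CPM in CTRL (SD, n = 3) and 4.06 ± 0.0494 (SD, n = 2) in NF1KO, which is a change of 2.34 ± 0.16 (adjusted p = 8.19e-07), and with BYL719 the lines differed by 0.11 ± 0.14 (adjusted p = 0.595, 95% interval -0.21 to 0.42). HGF, the ligand of MET, had at most 4 counts in a CTRL DMSO library and up to 70 in an NF1KO one, or 0.0365 ± 0.0326 CPM (SD, n = 3) and 1.08 ± 0.270 (SD, n = 2, adjusted p = 5.32e-05). In BYL719 HGF was listed at 0 in every CTRL library and stood at 0.465 ± 0.100 CPM (SD, n = 3) in NF1KO (adjusted p = 4.16e-05). ARTN, a RET ligand, rose by 0.62 ± 0.17 (adjusted p = 0.0239), which was not called without CTRL DMSO replicate 1 (0.0679) or 2 (0.0529) or NF1KO DMSO replicate 2 (0.125) or 3 (0.117), and with BYL719 its difference was 0.04 ± 0.16 (adjusted p = 0.878, 95% interval -0.31 to 0.38). GAS6, the ligand of AXL, was the most abundant by CPM, at 24.3 CPM in both lines in DMSO. BYL719 raised it in CTRL by 0.62 ± 0.11 (adjusted p = 6.72e-04) and in NF1KO by 0.46 (adjusted p = 0.0230). The call in NF1KO was lost on leaving out some libraries, NF1KO BYL719 replicate 2 among them (adjusted p = 0.0700).

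Among 18 tested proteoglycans and enzymes of heparan sulphate, the co-factor of FGF receptors, 5 were lower and 1 higher in NF1KO in DMSO (median -0.04, all tested genes -0.01). There 20.3% of all tested genes were called. GPC6, a glypican, had a mean of 5.78 ± 1.08 CPM in CTRL (SD, n = 3) and 0.621 ± 0.121 (SD, n = 2) in NF1KO, which is a change of -3.21 ± 0.21 (adjusted p = 6.05e-07). The sulphatase SULF1 changed by -2.20 ± 0.23 (adjusted p = 3.24e-05), and the syndecan SDC2 rose by 0.55 ± 0.09 (adjusted p = 0.00128). In BYL719 8 were lower and 3 higher in NF1KO (median -0.17, all tested genes 0.00), beside 39.8% of all tested genes called. With drug in CTRL 8 of the 18 rose and 1 fell (median 0.08, all tested genes 0.00). Both directions together were a share near the 44.4% of all tested genes called there. By direction, 22.6% of all tested genes were higher and 21.8% lower. The smallest p was that of SDC2 (0.97 ± 0.08, adjusted p = 2.82e-06).

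Of genes known to be induced by FGF receptor signalling or to feed back on it, most of those tested were higher in NF1KO. Of 12 tested, 8 were higher and 0 lower in DMSO (median 1.12, all tested genes -0.01), beside 20.3% of all tested genes called. In BYL719 8 were higher and 3 lower (SPRY1, SPRED3 and FLRT3), beside 39.8%. The genes of this list are also outputs of RAS and ERK from any receptor. The ETS factor ETV5 (6.11 ± 0.20, adjusted p = 1.53e-09) and the feedback inhibitor SPRY4 (6.15 ± 0.23, adjusted p = 3.51e-09) had the smallest p values of the list. Adaptors and close effectors moved less: of 18 tested, 1 was higher and 1 lower in DMSO (median -0.04), beside 20.3% of all tested genes called. The adaptor CRKL rose by 0.46 ± 0.07 (adjusted p = 5.54e-04). FRS2, the docking protein of FGF receptors, changed by -0.27 ± 0.07 (adjusted p = 0.0264), a call lost without each CTRL DMSO library (0.0738, 0.0515 and 0.0509) and each NF1KO DMSO library (0.189 and 0.131). Of 18 genes of receptor turnover and shedding, 2 were higher and 3 lower in DMSO (median -0.05), a share near the 20.3% of all tested genes called there. LRIG1, which promotes degradation of several receptor tyrosine kinases, changed by -1.16 ± 0.07 (adjusted p = 2.02e-07) between the lines, and BYL719 raised it in CTRL by 0.62 ± 0.06 (adjusted p = 5.22e-06).

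Of 50 other receptor tyrosine kinases 31 were tested, and 4 were higher and 11 lower in NF1KO in DMSO (median -0.18, all tested genes -0.01). There 20.3% of all tested genes were called. The ephrin receptor EPHA4 changed by -1.20 ± 0.08 (adjusted p = 7.23e-07), ERBB2, which encodes HER2, by -0.82 ± 0.10 (adjusted p = 9.06e-05), and EPHA1 by 0.57 ± 0.07 (adjusted p = 1.63e-04). With BYL719 in CTRL 11 were higher and 6 lower (median 0.23, all tested genes 0.00), where 44.4% of all tested genes were called. Of these, ERBB2 rose by 1.23 ± 0.09 (adjusted p = 5.07e-07), EPHA4 by 0.98 ± 0.07 (adjusted p = 5.28e-07) and ERBB3 by 0.72 ± 0.06 (adjusted p = 2.44e-06), beside the 0.90 of FGFR2. Of 12 paralogues and co-receptors of the 9, 5 were tested, of which TYRO3, a paralogue of AXL, was lower in NF1KO in DMSO (-0.33 ± 0.08, adjusted p = 0.00866). That call was lost without NF1KO DMSO replicate 2 (adjusted p = 0.0630) or 3 (0.0984).

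The genes whose levels ran closest to each receptor over the 11 libraries were taken from 10162 genes by Pearson's r of log2 CPM. Since the libraries fall into 4 groups, r mostly reflects the order of the groups, and it is a description. For MET they were TENM3 (r = 0.997) and PREX1 (0.997), for FGFR2 NRCAM (0.995) and ARHGEF38 (0.995), for DDR1 FLOT2 (0.991) and TM7SF2 (0.982), and for GFRA1 IFNLR1 (0.990) and SPOCD1 (0.987). For FGFR1 they were ABCC3 (0.983) and DHRS2 (0.979), for RET CLMP (0.983) and PER2 (0.977), for FGFR4 SLC12A9 (0.974) and SEMA3C (0.962), and for FGFR3 COL1A1 (0.973) and GRB10 (0.971). AXL, the least abundant, had the lowest values, with SYT13 (0.904) and MYADM (0.880).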

How the data were processed

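Single-read, poly(A)-selected, stranded RNA sequencing was used, and of 12 labelled samples 11 had gene counts and were analysed. Gene counts were used as the authors deposited them. Per the submitters' processing notes, reads were handled with STAR 2.5.2a, SAMtools 1.7, Picard 2.9.2 and edgeR on hg38, and the counting tool and annotation are not given in the sources used here. Genes were filtered with filterByExpr, scaled by TMM and tested with edgeR 4.0.16 (quasi-likelihood, R 4.3.3) in 1 fit of the 4 groups, with Benjamini-Hochberg adjustment over 16081 genes, a threshold of 0.05 and log2 CPM at a prior count of 2. Intervals are at 95%.

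The receptors and gene lists were chosen with earlier results of these data known. All 9 receptors were described. From each list up to 4 called genes were named by smallest adjusted p, with ESR1, FOXA1 and GATA3 beside RET and GFRA1, and for each receptor the 2 genes most alike. The 3 nearest genes within 1 Mb were named for MET and GFRA1, and ST7-OT3 was named for MET as well. Same-numbered CTRL libraries deviated together from their group means (r = 0.59, 0.34 and 0.32). CTRL libraries numbered 2 and 3 also did so across numbers (r = 0.23 and 0.18). Pairing by number was thus clear only for the CTRL libraries numbered 1. Results were recomputed with other scaling (RLE, upper quartile), with other filters (none, or 1 CPM in 3 libraries), with DESeq2 1.42.0 and limma-voom 3.58.1, with a replicate block, from the libraries of the compared groups alone, and without each library in turn or both CTRL libraries numbered 1. The procedure was tested on data simulated from its own model with independent libraries, so that test does not cover libraries that deviate together.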

Additional observations from a re-analysis of the deposited data

Results flagged for a closer look

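For 22 of the 136 receptors and listed genes tested (16.2%, where 9.39% of all tested genes were called) the effect of BYL719 differed between the lines by an interaction term in edgeR's quasi-likelihood test. Values are log2, NF1KO less CTRL.

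Among the receptors the difference was -0.45 for FGFR2 (0.90 in CTRL and 0.45 in NF1KO), -1.14 for FGFR4 (0.44 and -0.70), 0.56 for RET (-0.37 and 0.19), 1.45 for GFRA1 (-0.28 and 1.17) and 0.98 for AXL (-0.57 and 0.40). Of the ligands, GDF15 differed by -2.24 (1.06 and -1.18, adjusted p = 7.28e-05).

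Among heparan sulphate genes, SDC1 differed by -0.57 (0.00 and -0.56), SDC2 by -0.69 (0.97 and 0.28), GPC3 by 1.54 (-0.26 and 1.28) and EXT1 by -0.34 (0.44 and 0.10). For the adaptors it was 0.34 for CRKL (-0.17 and 0.16) and -0.40 for STAT3 (0.36 and -0.04). Among feedback genes SPRY1 differed by -0.53 (0.37 and -0.16), SPRED1 by 0.78 (-0.80 and -0.01), ETV1 by 2.58 (-2.96 and -0.38) and FLRT3 by -1.46 (2.17 and 0.70). ETV4 was called too (adjusted p = 0.0432), but it was listed at 0 in every CTRL BYL719 library, so that its fitted difference of 5.20 depends on the prior count and gives no size. Its mean was 0.124 CPM in CTRL DMSO, 10.9 in NF1KO DMSO and 6.98 in NF1KO BYL719.

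Of other receptor tyrosine kinases, ERBB2 differed by -0.85 (1.23 and 0.38) and EPHB6 by -0.52 (0.59 and 0.07). Of luminal regulators, ESR1 differed by 0.44 (0.05 and 0.48) and SPDEF by -0.84 (0.20 and -0.64). The luminal keratin KRT18, an epithelial marker, differed by -0.59 (0.40 and -0.19).

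Leaving out any 1 library kept the call of FGFR4, GFRA1, GDF15, SDC1, SDC2, GPC3, ETV1 and ERBB2. For STAT3 (adjusted p = 0.0517) and FLRT3 (adjusted p = 0.0577) it ended without NF1KO DMSO replicate 2. It ended on leaving out any of 9 libraries for EXT1 (adjusted p up to 0.213), 10 for CRKL (0.192), 10 for ETV4 (0.101), 6 for SPRY1 (0.124), 5 for SPRED1 (0.138), 9 for EPHB6 (0.179), 8 for ESR1 (0.147), 8 for SPDEF (0.123) and 8 for KRT18 (0.146).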

How the results depend on the processing

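Of the values of the 45 receptor results under the alternatives, 840 kept their direction and side of the threshold, 36 lost the call, 20 gained it and 22 changed sign. The sign changed only for values near 0. FGFR4 between the lines in DMSO (0.03) was -0.04 with a replicate block over all groups, -0.06 without both CTRL libraries numbered 1 and -0.06 to 0.16 on leaving out 1 library. DDR1 with BYL719 in NF1KO (0.01) was 0.00 under RLE scaling, DESeq2 and only the compared libraries, and -0.02 to 0.04 on leaving out 1 library. The difference of effects of MET (-0.01) was 0.00 with no filter, 0.01 with the block over all groups and -0.05 to 0.02 on leaving out 1 library, and that of FGFR1 (0.03) was -0.04 to 0.10. On leaving out 1 library, the receptors called ranged from 4 to 7 for BYL719 in CTRL (lowest without CTRL DMSO replicate 2), 1 to 4 in NF1KO (1 when NF1KO DMSO replicate 3 was omitted, 2 for replicate 2) and 2 to 5 for the difference of effects (2 without NF1KO DMSO replicate 2). Leaving out an NF1KO DMSO library leaves 1, assumed to vary like the other groups. With the replicate block within each line, BYL719 in CTRL gave 9 calls instead of 7 (MET and DDR1 added). In NF1KO BYL719 gave 7 calls instead of 4 (FGFR3, RET and AXL added), although the numbers are not shown to pair the NF1KO libraries (r = 0.08 and 0.15). MET in NF1KO BYL719 was 18.1 CPM under RLE scaling. The cause of these changes was not tested. Low counts limit AXL, and the group of 2 libraries limits the NF1KO comparisons.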
